A study of Mus musculus with 9 samples.

Results

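The genes described here are 10: *Penk*, *Scg2*, *Nrn1*, *Gpm6b*, *Ccn4*, *Esm1*, *Col24a1*, *Wnt3*, *Sostdc1* and *Sh3rf2*. They were picked from 19071 tested genes because their array signals were large in Th1 cells, and most of them encode secreted proteins or proteins best known from the nervous system. All 10 were represented on the array, by 12 of its 39429 probes, and all 10 passed the filter on dim probes. *Ccn4* and *Sostdc1* had 2 probes each, and the brighter one stands for the gene unless stated. Because the levels in Th1 cells chose the genes, their differences between Th1 cells and either of the other populations are given as a description with no test. The contrast of Th17 with naive cells was tested, although the naive arrays were also part of the choice.

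CD4+ T cells of BALB/c mice were sorted into 3 populations, and the RNA of each was measured on 3 arrays, 9 in all. Th17 cells were CD3+ CD4+ CD45RB low and displayed captured IL-17A but no interferon gamma, Th1 cells were CD3+ CD4+ CD45RB low and displayed captured interferon gamma but no IL-17A, and naive cells were CD3+ CD4+ CD45RB high. All 3 populations came from spleen and lymph nodes, were enriched magnetically for CD4, and were treated for 3 h with PMA at 10 ng/ml and ionomycin at 500 ng/ml ahead of the sort, which means that naive cells had been stimulated as well. Nothing in the labels ties the replicates to animals, ages, pools or separate sorts, and the p-values therefore cover the spread among these arrays alone, part or all of which may be technical. Slide 1 carried the naive arrays and Th1 replicate 1, slide 2 carried Th17 replicates 1 and 2 with Th1 replicates 2 and 3, and slide 3 carried Th17 replicate 3. No slide carried both Th17 and naive cells. The share of probes well above background was 53.4% to 58.3% per array, no spot was saturated, and the number of arrays limits the precision. The 7 T cell markers checked, among them *Cd3e* and *Cd4*, were well above background on every array.

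Enkephalin and granin genes encode precursors of peptides that neurons and endocrine cells store in granules, cut with prohormone convertases and release on stimulation. Wnt proteins are lipid-modified signals that act at short range through Frizzled receptors, and CCN proteins, proteoglycans and fibrillar collagens belong to the matrix around cells. In T cells several of these genes are known outside their textbook tissue: *Penk* from activated and regulatory T cells, *Nrn1* from anergic and regulatory T cells, and *Sostdc1* from follicular helper T cells.

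Upstream sequences are shown for 4 of the 10 genes, *Scg2* and *Gpm6b* because each holds a full cAMP response element (CRE), and *Esm1* and *Wnt3* for contrast, as the first had similar levels in Th17 and Th1 cells and the second was low in Th17 cells. Each is the 250 bases before the gene's start, written 5′ to 3′ on the gene's strand, from RefSeq on build GRCm38.p6, and capitals mark matches to the motifs named below. *Scg2* lies at chr1:79440027-79440276 on the minus strand, *Gpm6b* at chrX:166238693-166238942, *Esm1* at chr13:113209409-113209658 and *Wnt3* at chr11:103773925-103774174, the last 3 on the plus strand.
Scg2: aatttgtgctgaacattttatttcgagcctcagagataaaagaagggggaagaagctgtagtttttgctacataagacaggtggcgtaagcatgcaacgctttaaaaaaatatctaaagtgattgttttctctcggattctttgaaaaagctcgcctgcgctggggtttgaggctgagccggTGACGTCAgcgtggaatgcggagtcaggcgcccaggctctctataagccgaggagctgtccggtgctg
Gpm6b: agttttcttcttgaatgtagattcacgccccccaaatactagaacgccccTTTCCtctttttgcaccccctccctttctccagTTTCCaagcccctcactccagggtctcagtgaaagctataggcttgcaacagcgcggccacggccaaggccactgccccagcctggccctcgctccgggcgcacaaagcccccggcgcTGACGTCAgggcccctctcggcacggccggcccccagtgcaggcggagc
Esm1: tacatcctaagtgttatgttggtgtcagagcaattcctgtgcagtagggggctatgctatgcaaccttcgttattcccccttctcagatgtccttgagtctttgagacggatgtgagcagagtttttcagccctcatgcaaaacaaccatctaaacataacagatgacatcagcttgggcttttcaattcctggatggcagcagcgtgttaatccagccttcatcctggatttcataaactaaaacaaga
Wnt3: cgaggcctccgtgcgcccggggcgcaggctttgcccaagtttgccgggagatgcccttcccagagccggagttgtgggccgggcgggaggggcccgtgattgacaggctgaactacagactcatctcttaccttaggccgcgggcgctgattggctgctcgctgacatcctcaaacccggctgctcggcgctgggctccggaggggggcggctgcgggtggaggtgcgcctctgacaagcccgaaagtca
The RefSeq table held an upstream sequence for 5 of the 10 genes, these 4 and *Col24a1*. The CRE, TGACGTCA, began 68 bases before the start of *Scg2* and 49 bases before that of *Gpm6b*, and 1.55% of the 32851 upstream sequences of the same length held it. The *Col24a1* window ended in the CRE letters without the last one, and the next base was outside the search. The NFAT core GGAAA, searched on both strands like every motif, stood 200 and 167 bases before the start of *Gpm6b*, and 55.6% of all upstream sequences held at least 1 match. The TATA box TATAAA (12.4% of all), the AP-1 site TGANTCA (6.75%) and the T-box motif TCACACC (3.33%) had no match in the 5 windows. A match is a description of the letters and was not tested as a site.

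A level is the log2 intensity minus that of the array's 75th percentile, so 0 is the intensity of a probe at that percentile, and a level of one gene is not set against that of another. In Th1 cells all 10 genes were well above background on 3 of 3 arrays, and all 3 Th1 arrays lay above all 3 naive arrays for 10 of 10 genes, an order that 28.1% of the tested genes showed. This order was part of the choice and nothing is read from it. The difference between Th1 and naive cells ranged over the 10 genes between 3.78 and 11.57 on the log2 scale, with a median of 9.20 that takes dim naive signals at face value, where the median of all tested genes was -0.09. Th17 cells divided the genes. *Penk*, *Scg2*, *Ccn4*, *Esm1*, *Nrn1* and *Gpm6b* were well above background on every Th17 array, whereas *Wnt3* and *Col24a1* were so on 0 of 3 Th17 arrays and *Sostdc1* and *Sh3rf2* on 1 of 3. In bulk samples like these, fewer cells that use a gene and less RNA per cell cannot be told apart.

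**Figure D1:**
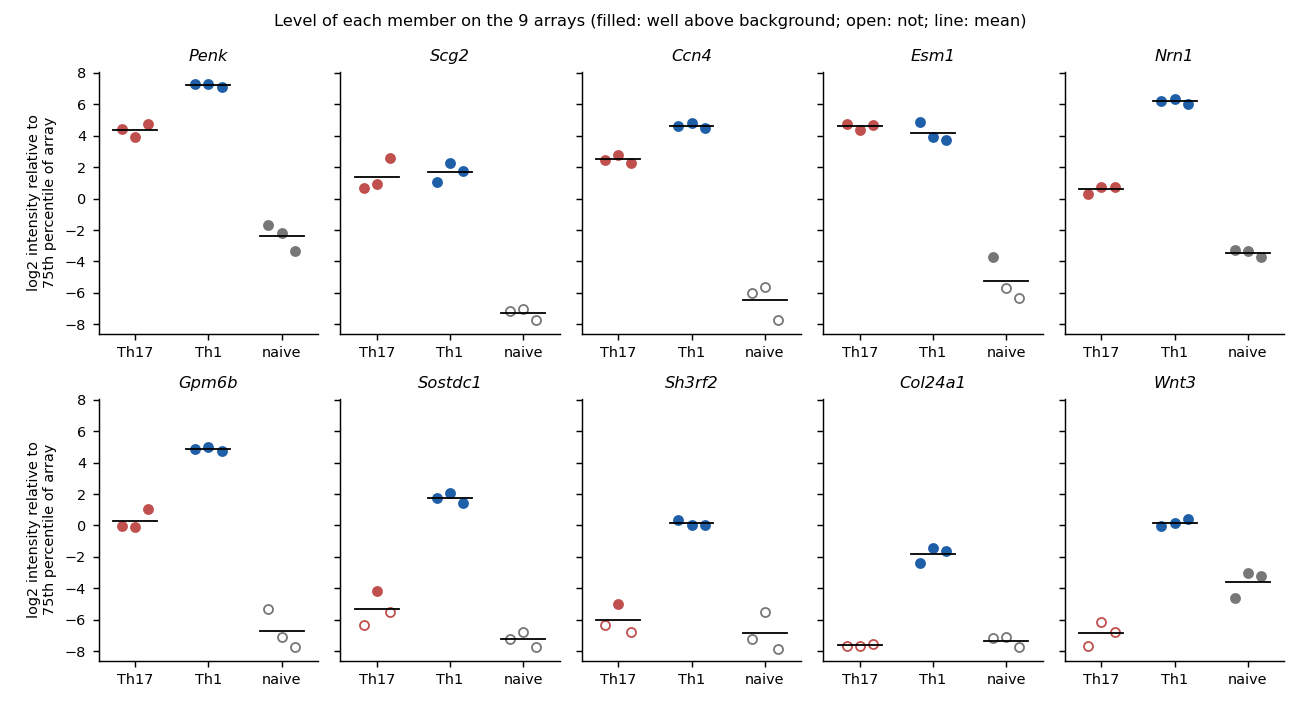
Level of each of the 10 genes on each array, as log2 intensity relative to the array's 75th percentile, with Th17, Th1 and naive arrays side by side. Filled points were well above background, open points were not, and lines are means of 3 arrays. The Th1 points are filled in every panel, and the Th17 points are high in the upper row and for *Gpm6b*, and mostly open for *Sostdc1*, *Sh3rf2*, *Col24a1* and *Wnt3*.

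Of the precursors of secreted peptides, *Penk* was well above background in all 3 populations and *Scg2* in both effector populations. *Penk*, which encodes the precursor of the enkephalins, stood at 4.39, 3.94 and 4.72 on the Th17 arrays, at 7.29, 7.28 and 7.11 on the Th1 arrays and at -1.69, -2.18 and -3.32 on the naive arrays. The 3 groups did not overlap, and the SD of the Th1 arrays was 0.10. Th1 cells exceeded naive cells by 9.62 ± 0.38 on the log2 scale (SE of the limma fit, 3 arrays per group), which is 788-fold. Th17 cells were lower than Th1 cells by 7.34-fold, a log2 difference of -2.87 ± 0.38. Th17 cells exceeded naive cells by 6.75 ± 0.38, with an adjusted p of 4e-06 (limma, two-sided, Benjamini-Hochberg over all tested genes, as throughout).

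*Scg2*, which encodes secretogranin II, a granule protein and precursor of secretoneurin, had similar levels in both effector populations. *Scg2* stood at 0.69, 0.92 and 2.55 on the Th17 arrays, at 1.03, 2.23 and 1.75 on the Th1 arrays and at -7.16, -7.05 and -7.69 on the naive arrays, where it was not well above background. The Th17 and Th1 arrays overlapped. Where a group was not well above background, a fold written with at least is set against the dimmest signal that was. Such folds hold for the main processing only and are no strict limits. By this measure *Scg2* was at least 113-fold higher in Th1 than in naive cells. It was at least 92.7-fold higher in Th17 than in naive cells (limma adjusted p = 4.44e-06). With normexp background correction the log2 difference of *Scg2* between Th1 and naive cells was smaller, at 4.77. The difference between Th17 and Th1 cells was -0.28 ± 0.50. It moved with single arrays: on slide 2, which carried 2 arrays of each population, it was -1.18, without Th17 replicate 3 it was -0.86, and without Th17 replicate 1 it was 0.06.

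*Nrn1* and *Gpm6b*, genes of neuronal and glial membranes, were high in Th1 cells and intermediate in Th17 cells. *Nrn1* encodes neuritin, a membrane-anchored protein that promotes growth of neurites. It stood at 0.28, 0.74 and 0.72 on the Th17 arrays, at 6.17, 6.34 and 6.04 on the Th1 arrays and at -3.28, -3.34 and -3.69 on the naive arrays, all well above background. The groups lay far apart relative to their spread, with an SD of at most 0.26 in any of them. Th1 cells exceeded naive cells by 9.62 ± 0.17, and Th17 cells were 48.6-fold lower than Th1 cells, a log2 difference of -5.60. Th17 cells exceeded naive cells by 4.02 ± 0.17, or 16.2-fold (limma adjusted p = 1.14e-06).

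*Gpm6b*, a member of the proteolipid protein family of myelin and neuronal membranes, was well above background in both effector populations. Its levels were -0.01, -0.09 and 1.02 on the Th17 arrays, 4.88, 4.99 and 4.74 on the Th1 arrays and -5.28, -7.07 and -7.75 on the naive arrays, where it was not well above background. Set against the dimmest detected signal, *Gpm6b* was at least 1040-fold higher in Th1 than in naive cells. Th17 cells were 23.6-fold lower than Th1 cells, with no overlap, and at least 43.9-fold higher than naive cells (limma adjusted p = 2.79e-05).

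Among matrix-related genes, *Ccn4* and *Esm1* were high in both effector populations and *Col24a1* was above background in Th1 cells alone. *Ccn4* encodes WISP1, a secreted matricellular protein found as a Wnt-induced gene. It stood at 2.43, 2.79 and 2.24 on the Th17 arrays, at 4.61, 4.77 and 4.49 on the Th1 arrays and at -6.03, -5.64 and -7.70 on the naive arrays, where it was not well above background. The 3 groups did not overlap. *Ccn4* was at least 875-fold higher in Th1 than in naive cells, 4.40-fold lower in Th17 than in Th1 cells, and at least 199-fold higher in Th17 than in naive cells (limma adjusted p = 2.75e-06). Its second probe gave the same order, with log2 differences of 10.41 for Th1 minus naive, -2.30 for Th17 minus Th1 and 8.10 for Th17 minus naive cells.

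*Esm1* encodes endocan, a secreted proteoglycan best known from endothelial cells. It stood at 4.76, 4.37 and 4.67 on the Th17 arrays, at 4.85, 3.92 and 3.69 on the Th1 arrays and at -3.71, -5.69 and -6.35 on the naive arrays, where it was well above background on replicate 1 only. *Esm1* had the highest ratio of Th17 to Th1 signal of the 10 genes, although those arrays overlapped and the difference was 0.45 ± 0.62 on the log2 scale. Th1 cells exceeded naive cells by 9.41 ± 0.62, and Th17 cells exceeded naive cells by 9.85 ± 0.62 (limma adjusted p = 6.99e-06).

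*Col24a1* encodes a fibrillar collagen chain. It stood at -7.63, -7.65 and -7.50 on the Th17 arrays, at -2.36, -1.44 and -1.65 on the Th1 arrays and at -7.16, -7.06 and -7.72 on the naive arrays. Only the Th1 arrays were well above background, and they lay above all others. *Col24a1* was at least 12.2-fold lower in Th17 than in Th1 cells and at least 10.1-fold higher in Th1 than in naive cells. Th17 and naive cells were both below background and are not compared.

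Of the 10 genes, those of Wnt and BMP signalling, *Wnt3* and *Sostdc1*, were high in Th1 cells and at or near background in Th17 cells. *Wnt3* encodes a secreted Wnt ligand. It stood at -7.63, -6.12 and -6.78 on the Th17 arrays, at -0.02, 0.13 and 0.42 on the Th1 arrays and at -4.58, -3.01 and -3.20 on the naive arrays. *Wnt3* was the only one of the 10 genes whose 3 Th17 arrays all lay below all 3 naive arrays. It was well above background on every Th1 and naive array and on no Th17 array. Th1 cells exceeded naive cells by 3.78 ± 0.47, or 13.7-fold, and Th17 cells were at least 48.8-fold lower than Th1 cells. Th17 cells were at least 3.56-fold lower than naive cells (limma adjusted p = 0.000606); with normexp background correction the fitted log2 difference was -0.65 (adjusted p = 0.0217), and the adjusted p reached 0.0439 with the slide as a block.

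*Sostdc1* encodes a secreted antagonist of BMP ligands that also modulates Wnt signalling. Its brighter probe stood at -6.30, -4.15 and -5.50 on the Th17 arrays, at 1.77, 2.07 and 1.41 on the Th1 arrays and at -7.23, -6.75 and -7.75 on the naive arrays. Of the Th17 arrays only replicate 2 was well above background, and no naive array was. *Sostdc1* was at least 119-fold higher in Th1 than in naive cells, and all 3 Th17 arrays lay below all 3 Th1 arrays. The measured log2 difference of -7.07 between Th17 and Th1 cells takes dim Th17 signals at face value, and it was -4.56 with normexp background correction. *Sostdc1* passed the filter through its Th1 arrays, so Th17 and naive cells are not compared. The dimmer probe, which was not well above background on any Th17 or naive array, was at least 22.6-fold higher in Th1 than in naive cells and at least 27.4-fold lower in Th17 than in Th1 cells.

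**Figure D2:**
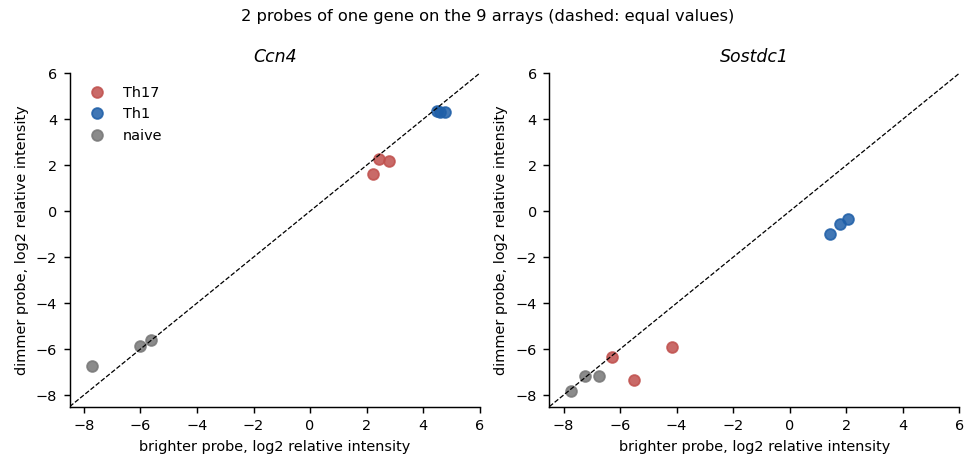
Levels on the dimmer probe (vertical) against the brighter probe (horizontal) of *Ccn4* and *Sostdc1*, both as log2 relative intensity, 1 point per array, with equality dashed. For *Ccn4* the Th17, Th1 and naive arrays keep the same order on both probes. For *Sostdc1* the Th1 arrays stand apart on both, between 1.41 and 2.07 on the brighter probe and between -1.01 and -0.35 on the dimmer one, while the Th17 and naive arrays lie near background.

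*Sh3rf2*, the intracellular gene of the set, encodes a RING and SH3 domain protein that lowers its relative POSH, a scaffold of JNK signalling encoded by *Sh3rf1*. It stood at -6.34, -4.96 and -6.80 on the Th17 arrays, at 0.32, 0.05 and 0.05 on the Th1 arrays and at -7.23, -5.52 and -7.84 on the naive arrays. The Th1 arrays lay above all others, and Th17 and naive arrays overlapped. *Sh3rf2* was at least 39.1-fold higher in Th1 than in naive cells, and Th17 cells, with 1 of 3 arrays well above background, lay below Th1 cells by a log2 difference of -3.16 with normexp correction. It passed the filter through its Th1 arrays, and Th17 and naive cells are not compared.

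**Figure D3:**
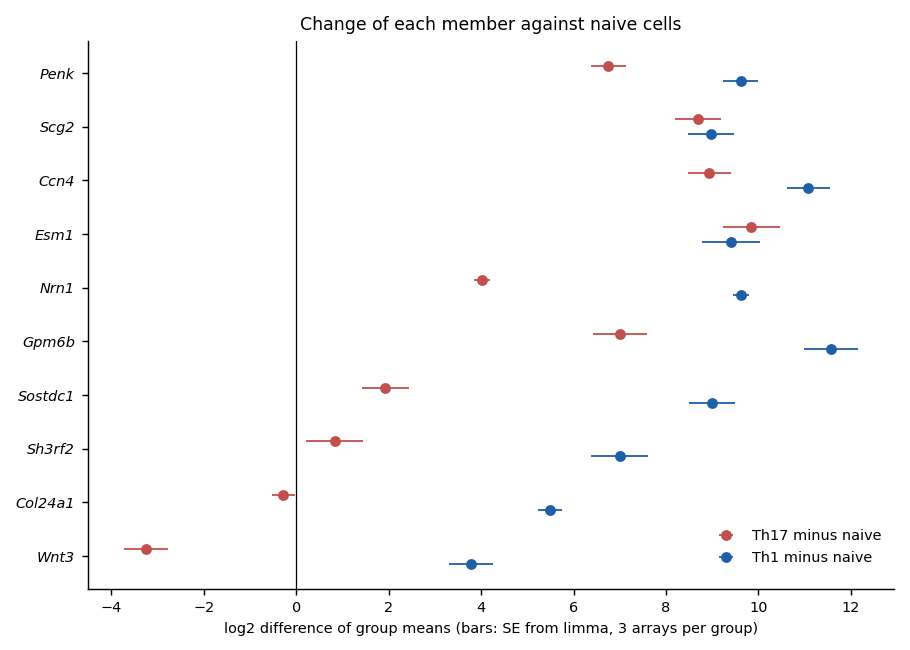
Log2 difference from naive cells of each of the 10 genes in Th17 cells (red, upper point of each pair) and in Th1 cells (blue), with bars for the SE of the limma fit. The Th1 differences range between 3.78 and 11.57, and the Th17 differences between -3.25 for *Wnt3* and 9.85 for *Esm1*. For genes not well above background in naive or Th17 cells the plotted value is the measured difference. The text gives a fold written with at least or makes no comparison.

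Th17 and naive cells were compared for the 7 genes that were well above background on all arrays of at least one of them. Limma called 6 higher in Th17 cells, namely *Penk*, *Scg2*, *Ccn4*, *Esm1*, *Nrn1* and *Gpm6b*, and 1, *Wnt3*, lower, where 24.4% of all tested genes were called higher and 29.7% lower. All 3 Th17 arrays lay above all 3 naive arrays for those 6 (28.4% of all tested) and below them for *Wnt3* (34.9%). *Sostdc1*, *Sh3rf2* and *Col24a1*, which passed the filter through their Th1 arrays, are left out of these counts. The 7 genes were singled out by their own signals, so nothing is read from their share of calls. Since no slide carried both populations, the slide as a block leaves this contrast to rest on the Th1 arrays that link the slides, and the 7 genes then had adjusted p-values of at most 0.0439. Between Th17 and Th1 cells, all 3 Th17 arrays lay below all 3 Th1 arrays for 8 of the 10 genes, an order that 16.6% of tested genes showed and that nothing is read from here, and *Scg2* and *Esm1* overlapped. The median difference was -5.08, against 0.01 for all tested genes. The comparisons share arrays, so their values are set side by side only. Expressed as the share of the log2 distance between the naive and the Th1 mean, the Th17 mean stood at 105% for *Esm1*, 96.9% for *Scg2*, 80.8% for *Ccn4*, 70.1% for *Penk*, 60.6% for *Gpm6b* and 41.8% for *Nrn1*, with dim naive signals taken at face value.

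Within slide 1, where Th1 replicate 1 met the 3 naive arrays, the difference between Th1 and naive cells ranged between 3.58 and 11.57 over the 10 genes. Within slide 2, that between Th17 and Th1 cells ranged between -7.15 for *Wnt3* and 0.76 for *Esm1*. Among the Th1 arrays, replicate 2 was the highest for 6 of the 10 genes and replicate 3 the lowest for 7. Normexp background correction lifts dim signals and made differences from naive cells smaller. It gave 8.91 for *Penk* and 8.39 for *Nrn1*, 4.77 for *Scg2*, 4.86 for *Sostdc1*, 3.26 for *Sh3rf2* and 1.68 for *Col24a1* between Th1 and naive cells.

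The genes most like each of the 10 were found by Pearson r over the 9 arrays among 13070 genes with a symbol; the 9 arrays fall into 3 groups, so a high r mostly says that 2 genes share the order and spacing of the groups. Nearest to *Penk* were *Ecel1*, *Casp1* and *Ikzf2*, each at 0.997, and nearest to *Scg2* were *Slc38a6* at 0.997 and *Tiam1* and *Phactr2* at 0.996. *Ccn4* was closest to *Runx2* and *Rab27b*, both at 0.998, and *Endod1* at 0.995. *Esm1* was closest to *Frrs1* at 0.996, *Il1rl1* at 0.995 and *Gnpda2* at 0.994. Those 4 genes, which Th17 cells also had at high levels, each had between 343 and 559 genes at an r of at least 0.95. The genes low in Th17 cells had few: 22 for *Wnt3*, 51 for *Sh3rf2*, 62 for *Col24a1* and 92 for *Sostdc1*. *Wnt3* was closest to *Inpp1* at 0.982, *Cst7* at 0.978 and *Car2* at 0.977, and *Col24a1* to *Actbl2* at 0.997, *Calcr* at 0.996 and *Pax9* at 0.993. *Sostdc1* was closest to *Stfa3* at 0.992, *Ccdc80* at 0.990 and *Gjb2* at 0.988, and *Sh3rf2* to *Csgalnact1* at 0.982, *Ntn4* at 0.981 and *Ccdc80* at 0.980. *Nrn1* had 157 such genes, led by *Gm5796* at 0.998, and *Ces2b* and *Gm10406* at 0.997, and *Gpm6b* had 246, led by *Irf2* at 0.995 and *Egr4* and *Sry* at 0.994.

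Genes that work with these 10 were taken as 16 lists of 259 genes, of which 147 were tested. Limma called 89 of them in Th1 against naive cells, 38 higher and 51 lower, which is 60.5% where 53.9% of all tested genes were called, 23.5% higher and 30.4% lower. It called 26 between Th17 and Th1 cells, 14 higher and 12 lower (17.7%, against 15.8% of all, 8.28% higher and 7.53% lower), and 94 between Th17 and naive cells, 39 higher and 55 lower (63.9%, against 54.2% of all). These shares lay near those of all tested genes.

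Other neuropeptide genes were tested beside *Penk*, and 9 of 21 listed genes passed the filter. In Th1 against naive cells 5 rose and 2 fell, with a list median of 0.99 (3 rose with normexp correction). *Nts*, the precursor of neurotensin, stood at 2.47 ± 0.40 in Th1 cells and at -1.67 ± 0.65 in naive cells (SD, n = 3 each), a rise of 4.14 (limma adjusted p = 8.4e-05). Th17 cells had *Nts* at -2.32, a difference of -4.79 from Th1 cells (limma adjusted p = 0.000178). *Npy*, the precursor of neuropeptide Y, was at least 6.52-fold higher in Th17 and at least 7.42-fold higher in Th1 cells than in naive cells. *Calca*, which encodes calcitonin and CGRP, was at least 15.8-fold higher in Th17 than in naive cells. Its level in Th17 cells exceeded that in Th1 cells by 3.46 (limma adjusted p = 0.00117). Not all Th1 arrays had *Calca* well above background, so this difference takes dim Th1 signals at face value. *Pomc*, the precursor of beta-endorphin and ACTH, fell by 1.53 in Th17 and fell by 1.60 in Th1 cells relative to naive cells. Of the opioid receptor genes, named after their values were seen, *Oprm1* and *Oprl1* were well above background on every array and *Oprd1* and *Oprk1* on none.

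Several enzymes that cut and trim prohormones were higher in Th17 than in Th1 cells, the opposite order to that of *Penk*. Of 15 tested, limma called 5 higher and 0 lower in Th17 against Th1 cells (5 and 1 at an unadjusted p under 0.05), where 8.28% of all tested genes rose. *Cpe*, a carboxypeptidase of secretory granules, stood at 3.98 ± 0.41 in Th17 cells and at -2.43 ± 0.33 in Th1 cells (SD, n = 3 each), a difference of 6.41 (limma adjusted p = 6.77e-06). *Pcsk1*, a prohormone convertase that cuts proenkephalin, was higher by 4.76 in Th17 than in Th1 cells (adjusted p = 0.000135) and was above background on 1 of 3 Th1 arrays. *Furin*, a convertase of the general secretory route, was higher by 1.69 in Th17 cells (adjusted p = 0.000328). Against naive cells 7 of the 15 rose and 4 fell in Th17 cells, and 7 rose and 4 fell in Th1 cells (4 rose with normexp correction). *Cpd* rose by 2.90 in Th17 and 2.60 in Th1 cells, and *Ece1* by 2.51 and 2.31 in the same order.

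Genes of dense-core granules and their release were listed with *Scg2*. In Th1 against naive cells 4 of 14 rose and 3 fell, in Th17 against naive cells 3 rose and 2 fell, and between Th17 and Th1 cells limma called 0 of 14 (3 at an unadjusted p under 0.05). *Snap25*, a fusion protein of vesicles, rose by 0.72 in Th17 cells and by 1.0 in Th1 cells relative to naive cells (limma adjusted p = 0.0124 and 0.0026), and *Slc18a2*, a vesicular monoamine carrier, by 1.25 and 1.30. *Stx1a*, a syntaxin of neuronal synapses, fell by 2.08 in Th17 and fell by 2.19 in Th1 cells. Among relatives of *Nrn1* and *Gpm6b*, 7 of 15 were tested and limma called 0 between Th17 and Th1 cells (2 at an unadjusted p under 0.05). The paralogue *Nrn1l* fell by 1.23 in Th17 against naive cells (limma adjusted p = 0.00222), a call lost with the slide as a block, and *Gpm6a* was not well above background on any array.

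In the CCN family, 2 of 5 relatives of *Ccn4* were tested. *Ccn1*, another matricellular gene, rose by 3.23 in Th1 against naive cells (limma adjusted p = 6.45e-06) and was lower in Th17 than in Th1 cells, with a difference of -2.26 (adjusted p = 2e-04). *Ccn2* was called in no contrast, with differences of -0.74, 0.93 and 0.18 for Th1 minus naive, Th17 minus Th1 and Th17 minus naive cells and adjusted p-values of at least 0.542, although without naive replicate 3 Th1 cells were called lower than naive cells (-1.87, limma adjusted p = 0.0467). Of 14 tested proteoglycan genes and endocan partners, 4 rose in Th17 against Th1 cells, among them *Gpc1*, a cell surface glypican, by 2.13 (adjusted p = 0.00015). *Lum*, a matrix proteoglycan, was at least 3.14-fold higher in Th17 than in Th1 cells. *Vegfa*, a growth factor known to induce *Esm1* in endothelium, fell by 1.80 in Th17 and fell by 2.76 in Th1 cells relative to naive cells. The fibrillar collagens measured beside *Col24a1* were *Col1a1*, *Col1a2* and *Col11a2*, and limma called 0 of them in any contrast (at an unadjusted p under 0.05 it was 1, lower in Th17 against naive cells). *Col1a1* had differences of 1.24 for Th1 minus naive, -1.27 for Th17 minus Th1 and -0.02 for Th17 minus naive cells, *Col1a2* had -0.37, -0.02 and -0.38, and *Col11a2* had -0.04, -0.38 and -0.42, with adjusted p-values of at least 0.081. Single calls appeared in other settings: *Col1a1* differed by 1.73 between Th1 and naive cells without naive replicate 2 (limma adjusted p = 0.0404), and without Th17 replicate 2 *Col1a2* and *Col11a2* differed by -0.57 and -0.56 between Th17 and naive cells. Of 12 tested collagen-processing genes 7 fell and 2 rose in Th1 against naive cells, and 7 fell and 3 rose in Th17 against naive cells. *Plod2*, a lysyl hydroxylase, rose by 2.85 in Th17 and by 2.65 in Th1 cells, and *P4ha1*, a prolyl hydroxylase, fell by 1.91 in Th17 and fell by 1.97 in Th1 cells.

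Of the other 18 Wnt ligands, 10 were tested, and *Wnt10a*, like *Wnt3*, was higher in Th1 cells than in both other populations. *Wnt10a* was at least 2.96-fold higher in Th1 than in naive cells (limma adjusted p = 0.000317) and at least 3.59-fold lower in Th17 than in Th1 cells (adjusted p = 0.00149). *Wnt9b* rose by 0.73 in Th1 against naive cells and fell by 1.59 in Th17 against Th1 cells, calls that were lost with normexp correction. *Wnt5b* fell by 4.51 in Th17 and fell by 4.39 in Th1 cells relative to naive cells (limma adjusted p = 1.58e-07 and 1.08e-07), and *Wnt10b* was at least 7.82-fold and at least 5.88-fold lower. *Wnt7b* rose by 1.72 in Th17 against naive cells (adjusted p = 0.00218). Its difference of 1.01 between Th1 and naive cells (adjusted p = 0.0268) was 0.06 with normexp correction (adjusted p = 0.807) and was no longer called without the filter or in 4 fits without 1 array. *Wnt1*, *Wnt4*, *Wnt5a*, *Wnt11* and *Wnt16* were called in no contrast, with adjusted p-values of at least 0.156 and differences between -0.21 for *Wnt1* and 0.90 for *Wnt4*, both for Th17 minus naive cells. With the slide as a block *Wnt16* was called higher than in naive cells, by 1.1 in Th17 and 0.83 in Th1 cells (adjusted p = 0.0186 and 0.0129), and without Th17 replicate 1 *Wnt11* was higher in Th17 cells by 0.71 than in Th1 and by 0.72 than in naive cells. *Wls*, the carrier that takes Wnt ligands to the cell surface, was at least 3.30-fold higher in Th17 and at least 5.21-fold higher in Th1 than in naive cells. *Ryk*, a Wnt co-receptor, was at least 9.12-fold and at least 8.30-fold higher, and *Fzd3*, a Frizzled receptor, fell by 2.48 in Th17 and fell by 2.21 in Th1 cells.

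**Figure D4:**
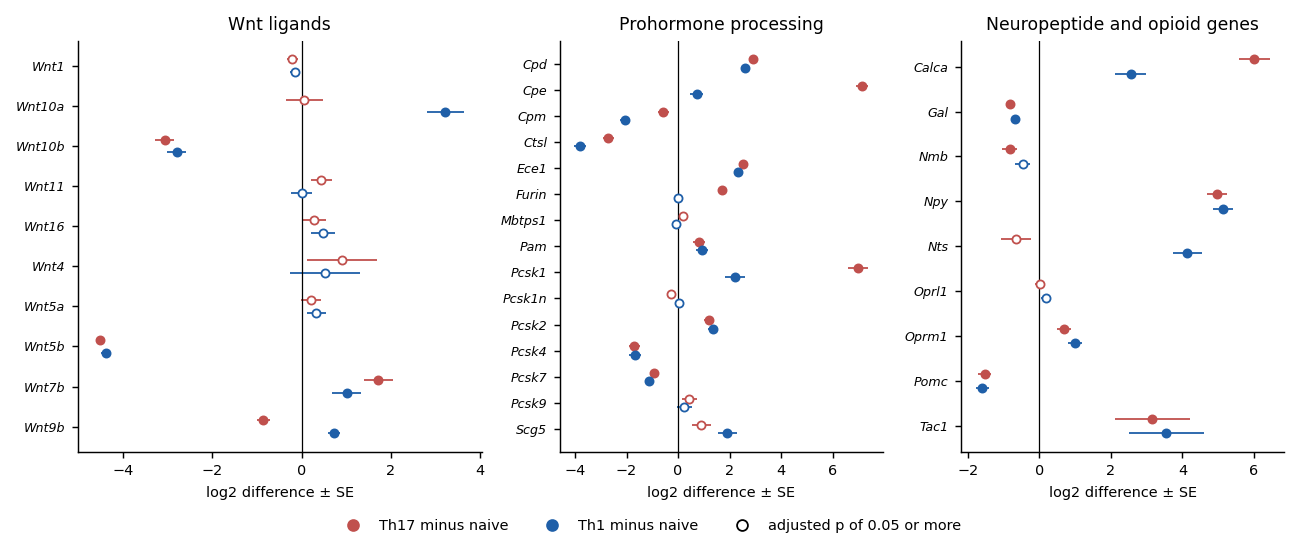
Log2 difference from naive cells, with bars for the SE, of all tested Wnt ligands, prohormone-processing genes and neuropeptide or opioid receptor genes other than the 10 genes described. Red is Th17 and blue is Th1, and open points have a limma adjusted p of 0.05 or more. *Cpe* and *Pcsk1* stand at 7.13 and 6.97 in Th17 cells, *Nts* and *Wnt10a* stand at 4.14 and 3.22 in Th1 cells and are open points in Th17 cells, and *Wnt5b* is low in both. *Pcsk1* and *Wnt10a* were above background on no naive array, so their plotted values are measured differences. Set against the dimmest detected signal, these were at least 31.2-fold in Th17 and at least 2.96-fold in Th1 cells.

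Inside the cell, genes that transduce the Wnt signal mostly fell relative to naive cells. In Th17 cells limma called 10 of 15 lower and 0 higher (11 and 0 at an unadjusted p under 0.05), with a list median of -0.57. Of all tested genes 29.7% were called lower and 24.4% higher in that contrast, with a median of -0.09. In Th1 cells 11 of the list fell and 2 rose, with a median of -0.59, where 30.4% of all tested genes fell and 23.5% rose. With the slide as a block 5 fell in Th17 cells, and within slide 1 6 fell in Th1 cells. *Lef1*, a transcription factor of the pathway that is also high in resting naive T cells, fell by 2.98 in Th17 and fell by 2.52 in Th1 cells (limma adjusted p = 2.77e-06 and 6.44e-06). *Dvl1*, a Dishevelled protein, fell by 1.86 in Th17 and fell by 1.35 in Th1 cells. Of the antagonists *Rnf43*, a ligase that removes Frizzled receptors, rose by 2.93 in Th17 and by 3.65 in Th1 cells, whereas its paralogue *Znrf3* fell by 2.31 in Th17 and fell by 3.04 in Th1 cells. Among 9 tested Wnt target genes 3 rose and 3 fell in Th17 cells, and 3 rose and 4 fell in Th1 cells.

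Of the BMP genes that *Sostdc1* bears on, 6 of 16 rose and 5 fell in Th17 cells, and 5 rose and 4 fell in Th1 cells, relative to naive cells. *Bmp7*, a ligand bound by the protein that *Sostdc1* encodes, stood at -3.44 ± 0.05 in Th17, -0.87 ± 0.12 in Th1 and -4.49 ± 0.32 in naive cells (SD, n = 3 each). Its rise of 3.62 in Th1 against naive cells had a limma adjusted p of 1.16e-06, and its difference of -2.57 between Th17 and Th1 cells one of 3.18e-05. *Bmpr2*, a BMP receptor, rose by 2.66 in Th17 and by 4.08 in Th1 cells, and Th17 cells were lower than Th1 cells, with a difference of -1.42 (limma adjusted p = 0.00567). *Id1*, a BMP target gene, fell by 2.21 in Th17 and fell by 2.78 in Th1 cells, while *Id2* rose by 2.16 and by 1.91. *Twsg1*, another secreted BMP modulator, rose by 1.83 and by 1.64. In the JNK list, *Sh3rf1* followed *Sh3rf2*: it rose by 2.49 in Th1 against naive cells (limma adjusted p = 4.47e-06) and had a difference of -2.29 between Th17 and Th1 cells (adjusted p = 3.29e-05). *Jun* was higher by 1.47 in Th17 than in Th1 cells (adjusted p = 0.00154).

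Markers of cells in which these genes are best known were checked beside them. Of 8 fibroblast markers, *Col3a1*, *Dcn*, *Pdgfra* and *Pdgfrb* were not well above background on any array, *Col1a1* and *Col1a2* were so on every array and *Lum* on all Th17 arrays, and the summed signal of the list, in units of the array's 75th percentile, was 0.300 to 0.459 in Th17, 0.284 to 0.702 in Th1 and 0.244 to 0.418 in naive cells. Of 7 endothelial markers, *Cdh5* and *Emcn* were not well above background on any array, *Pecam1* and *Kdr* were so on every array and *Vwf* on all Th17 arrays, and the summed signal was 8.54 to 12.6 in Th17, 10.7 to 13.4 in Th1 and 14.7 to 18.7 in naive cells. Of 9 neuronal and glial markers, *Syt1* was not well above background on any array, *Snap25*, *Mbp* and *Sox10* were so on every array, and the summed signal was 68.2 to 85.9 in Th17, 67.9 to 77.6 in Th1 and 112 to 123 in naive cells. *Map2*, a neuronal microtubule protein on that list, was at least 4.52-fold higher in Th1 than in naive cells and at least 5.48-fold lower in Th17 than in Th1 cells. By contrast, *Tubb3* was well above background on every Th17 and naive array and on no Th1 array. *Rbfox3* was so on no Th1 array, and *Gfap* on every Th17 array. Of 7 tested genes of this list, limma called 3 higher and 2 lower in Th1 against naive cells. The part of such cells in the levels of the 10 genes was not tested.

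Genes of regulatory T cells, which are CD45RB low like both effector sorts, were mostly higher in both than in naive cells. Of 9 listed, limma called 6 higher and 2 lower in Th17 against naive cells (1 fell with normexp correction). In Th1 against naive cells 7 were called higher and 0 lower (7 and 0 also at an unadjusted p under 0.05). Of all tested genes, 24.4% were called higher and 29.7% lower in Th17, and 23.5% higher and 30.4% lower in Th1 cells. Summed signals of the list were 157 to 185 in Th17, 131 to 190 in Th1 and 87.8 to 95.1 in naive cells. *Foxp3* rose by 3.97 in Th1 cells (limma adjusted p = 2.84e-06), and *Ikzf2*, which encodes Helios, rose by 6.54 in Th17 and by 8.84 in Th1 cells. Between Th17 and Th1 cells limma called 1 of the 9 higher and 5 lower, where 8.28% of all tested genes were higher and 7.53% lower. *Il2ra* was higher in Th17 cells by 0.82 (limma adjusted p = 0.0163), a call lost in some fits without 1 array. *Ikzf2* had a difference of -2.30. The calls of *Foxp3* (-0.80, limma adjusted p = 0.035) and *Gpr83* (-2.77, adjusted p = 0.0122) were lost within slide 2 (adjusted p = 0.0982 and 0.148). That of *Foxp3* was also lost without the filter and in most fits without 1 array. With normexp correction *Gpr83* differed by -0.29 (limma adjusted p = 0.445). The part of regulatory T cells in the levels of *Penk*, *Nrn1* and the other genes was not tested.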

How the data were processed

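RNA of 9 sorted samples, 0.5 µg each, was labelled with Cy3 and hybridised to 1-colour Agilent arrays. Per the file headers, the deposited array files hold, for each of 44397 spots (1377 controls), a processed signal, an intensity on a linear scale that Agilent Feature Extraction had background-subtracted; the headers give version 10.7.3.1 and the submitters' processing notes 10.5. The authors' deposited value table is on a log2 scale: differences between its columns match those of the scanner files (r = 1), column medians lie between -0.10 and 0.28, and the baseline subtracted per probe is unknown. The array header names an older build than that of the RefSeq annotation, which therefore served for names and upstream sequences; 27234 of 39429 probes received a symbol.

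Controls and outlier spots were left out, and log2 processed signal was shifted to each array's 75th percentile. Probes measured on all 9 arrays and well above background on at least 3 were kept (23215), and the brightest stood for its gene (19071 genes). One limma fit (version 3.58.1) covered all 3 groups (R 4.3.3, version 1.17.8 of data.table; figures with matplotlib 3.10.9), with Benjamini-Hochberg adjusted p under 0.05 as a call. In simulated data 100 genes were changed by 2 and another 100 by 1 on the log2 scale, among 19071 genes. Of those changed by 2, 83% were recovered for Th1 versus naive, 86% for Th17 versus Th1 and 88% for Th17 versus naive. Of those changed by 1, the shares were 57%, 65% and 51% in the same order. The false share of all calls was 5.41%, 3.21% and 4.14%. In the real data a far larger share of genes was called, 53.9%, 15.8% and 54.2%, so these rates are not carried over to the real fits. For a gene with no array of a group well above background, the fold was computed against each array's lowest signal among probes above background. The gene's own signal was used where it was higher. Such a fold, written with at least, is no strict limit, and normexp correction gave smaller differences for several genes. The genes and lists were chosen with earlier results of these data known.

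Named were all 10 genes, the tested CCN, fibrillar collagen and Wnt ligand genes, up to 4 called genes per list and contrast by smallest p, and the 3 genes most like each. Normexp (offset 50) ran on the median and not the mean signal, with outlier local backgrounds set to the array's median, an alternative chosen after seeing the data. Without that replacement the lower end of the signal on Th1 replicate 2 was 2400 before the offset, and with it 10.4. The other alternatives were quantile normalization, the 75th percentile over probes above background on all arrays, no filter and the mean over probes. Further ones were the slide as a block, within slides, a replicate block, the authors' log2 values, and leaving out each array. Residuals of arrays with the same number correlated at -0.007 to 0.175 and of others at -0.197 to 0.065. The ranges overlapped, with that of the same number higher, and pairing by number was not tested.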

Additional observations from a re-analysis of the deposited data

How the results depend on the processing

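For the 10 genes, 340 of 360 untested values kept their direction and stayed within the spread between replicates over 10 alternatives and 9 fits without 1 array. Many of these values could not change, so the count is no measure of stability. The fit without the filter, the replicate block and leaving out an array of the third group keep the main difference. The mean over probes keeps it for genes with 1 probe, and the fits within a slide repeat the slide block. The Th17 against naive calls of *Penk*, *Scg2*, *Ccn4*, *Esm1*, *Nrn1*, *Gpm6b* and *Wnt3* kept their direction and stayed past the threshold in each of those that gave a value. The value of *Scg2* for Th17 minus Th1 cells, -0.28, turned to 0.06 without Th17 replicate 1, and the fits without 1 array ranged between -0.86 and 0.06. Of the other 19 untested values that moved, most came with normexp correction, as for *Gpm6b* (7.76) and *Ccn4* (7.51) in Th1 against naive cells and *Wnt3* in Th17 against Th1 cells (-3.21). Dim signals limit the size of these differences.

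Of all tested genes, 10288 were called in Th1 against naive cells and 6547 within slide 1, 3015 in Th17 against Th1 cells and 1419 within slide 2, and 10332 in Th17 against naive cells and 5242 with the slide as a block; fewer arrays or degrees of freedom stand behind those counts. Leaving out 1 array gave 1924 to 2784 calls in Th17 against Th1 cells, the lowest without Th1 replicate 2. Taking the 75th percentile only over probes that every array had above background moved the share of higher calls to 55.2% against 43.6% in Th1 versus naive, to 41.6% against 52.4% in Th17 versus Th1 and to 51.5% against 45.1% in Th17 versus naive cells, with medians of all genes of 0.06, -0.05 and 0, against -0.09, 0.01 and -0.09. With the replicate block, 10165, 3037 and 10286 genes were called in Th1 versus naive, Th17 versus Th1 and Th17 versus naive cells, and no call of those 7 genes changed. In single lists, with the slide as a block 4 collagen-processing genes and 3 BMP genes fell in Th17 against naive cells and 1 granule gene fell in Th1 against naive cells, while 2 Wnt target genes fell in Th1 cells with quantile normalization. Between Th17 and Th1 cells the granule list had at most 2 calls, and the relatives of *Nrn1* and *Gpm6b* at most 1, in any alternative.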
